A study of Mus musculus with 2 samples.

Results

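The genes described here encode the metallothioneins and the core proteins of iron handling in the uterus of the pregnant mouse: Mt1, Mt2 and Mt3 (metallothioneins), Fth1 and Ftl1 (the ferritin heavy and light chains), Tfrc and Trf (the transferrin receptor and transferrin), Slc40a1 (ferroportin) and Hmox1 (haem oxygenase 1). They were taken by symbol from the authors' table of gene levels, in which all 9 were found among 22740 genes. RNA was sequenced from the whole uterus of 2 C57BL/6 mice on day 4 of pregnancy, with 1 poly-A-selected library per animal, titled WT1 and WT2. The libraries form 1 group with no treatment or second genotype, so the data give levels and the difference between 2 animals, called uterus 1 and uterus 2 here. No comparison of conditions can be made from them. Whole tissue pools all cell types, so fewer cells of a type and less RNA per cell cannot be told apart.

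Metallothioneins are small cysteine-rich proteins that bind zinc and copper, and the zinc-sensing factor MTF1 turns on Mt1 and Mt2 through short metal response elements in their promoters. In the mouse, Mt1 and Mt2 are known to be abundant in the decidua that the uterus forms after implantation. Iron enters most cells as transferrin bound to the transferrin receptor, is stored in the ferritin shell built from heavy and light chains, and leaves through ferroportin, while haem oxygenase 1 releases iron from haem. Iron regulatory proteins couple these steps by binding a hairpin in the mRNA, the iron-responsive element: in a 5′ untranslated region (UTR) it holds back translation, and in the 3′ UTR of Tfrc it protects the mRNA from decay.

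The hairpins are shown because the receptor, both ferritin chains and the exporter hold them. The GENCODE M1 coding transcripts (build NCBIM37, which is mm9, the build named in the submitters' processing notes) were searched for a bulged C, 5 paired bases, a loop of CAGTG followed by A, C or T, and the 5 pairing bases, with G to T pairs allowed. The pattern was found in 4 of the 9 genes, against 204 of 22611 genes (0.902%) over all coding transcripts. Each sequence below has 30 bases, 5′ to 3′ in the sense of the mRNA, written as DNA, with the bulged C and the loop in capitals. The positions are chr19:10057222-10057251 on the plus strand for Fth1, chr7:52715148-52715177 on the minus strand for Ftl1, and chr1:45982309-45982338 on the minus strand for Slc40a1, all in the 5′ UTR. The 4 of Tfrc lie in the 3′ UTR on the plus strand, at chr16:32631305-32631334, chr16:32631684-32631713, chr16:32631749-32631778 and chr16:32631796-32631825. Hairpins that depart from the pattern are missed, so 4 is the number of matches in Tfrc and may not be that of all its elements.
Fth1: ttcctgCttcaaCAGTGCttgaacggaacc
Ftl1: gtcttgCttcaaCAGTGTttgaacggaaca
Slc40a1: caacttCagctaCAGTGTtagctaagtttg
Tfrc 1: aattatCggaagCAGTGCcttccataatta
Tfrc 2: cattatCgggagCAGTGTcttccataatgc
Tfrc 3: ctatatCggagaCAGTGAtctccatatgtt
Tfrc 4: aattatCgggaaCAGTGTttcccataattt

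The ferritin hairpins were the most alike, with 26 of 30 bases shared between Fth1 and Ftl1 in an ungapped comparison. The Slc40a1 hairpin shared 13 of 30 bases with each of them. The 4 Tfrc hairpins shared between 18 and 25 bases with each other and between 9 and 11 with that of Fth1. A match of these letters is a description and does not show that a protein binds there.

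The promoters bear on the metallothioneins. In RefSeq windows of 300 bases (250 before the annotated start to 50 after it, GRCm38.p6), the metal response element core was searched as TGCACNC or TGCGCNC on both strands. At least 1 match was found in 25.7% of all 32851 windows and at least 3 in 1.97%. The Mt2 window held 4 matches, the Mt1 window 3 and the Mt3 window 1. One of the Tfrc windows held 2 matches, which overlap each other on opposite strands, while the other Tfrc window, both windows of Fth1 and that of Ftl1 held none. Hmox1, Trf and Slc40a1 were not matched in this table. The 7 matches of Mt1 and Mt2 are given in the direction of the gene with the motif in capitals, so that a motif on the opposite strand appears as its reverse complement. Mt1 b and c, Mt2 d and the Mt3 match begin after the annotated start, at positions 3, 21, 5 and 28 from it. The other matches of Mt1 and Mt2 begin before it. On chromosome 8 of GRCm38.p6, the Mt2 stretches are chr8:94172385-94172411, chr8:94172480-94172506, chr8:94172558-94172584 and chr8:94172612-94172638, and those of Mt1 are chr8:94179056-94179082, chr8:94179081-94179107 and chr8:94179099-94179125, all on the plus strand.
Mt2 a: gcatcgcctcTGCACCCggcccctcgg
Mt2 b: gcagacccttTGCGCTCagctcctttg
Mt2 c: gggggagggcGTGTGCAggctctgtcc
Mt2 d: aattcgggtcGTGCGCAggcccagggg
Mt1 a: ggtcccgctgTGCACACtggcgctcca
Mt1 b: cagggagctcTGCACTCcgcccgaaaa
Mt1 c: gcccgaaaagTGCGCTCggctctgcca

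Levels are the authors' RPKM, reads per kilobase of transcript, scaled to the size of the library, so genes can be compared within a library. Across the set the levels fell into a high group of ferritin and Mt1 and Mt2, a low group of the genes of uptake, export and haem breakdown, and Mt3 at the edge of detection. A gene was called detected at 1 RPKM or more in both uteri, which held for 8 of the 9 genes, against 58.4% of all 22740. Together the 9 genes took 0.381% of the summed RPKM in uterus 1 and 0.416% in uterus 2. Fth1, Ftl1, Mt1 and Mt2 made up 96.9% and 97.2% of that.

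**Figure D1:**
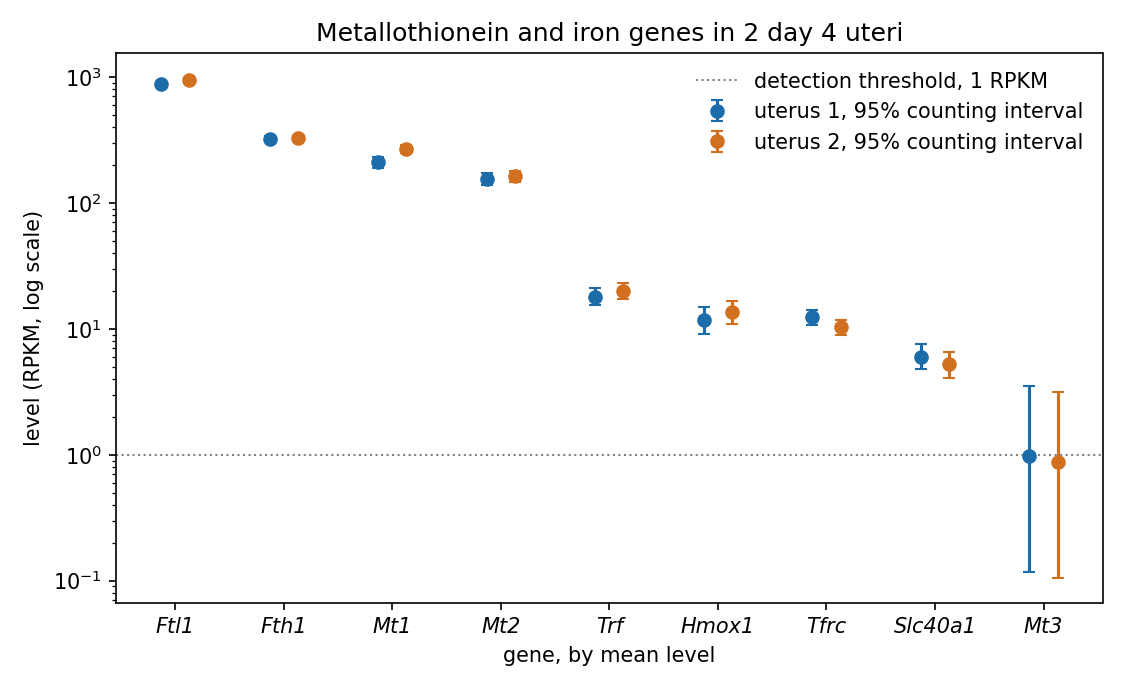
Level of each gene (RPKM, log axis) in uterus 1 and uterus 2, ordered by mean, with 95% Poisson intervals of the recovered reads as bars and a dotted line at 1 RPKM. The ferritin and Mt1 and Mt2 points lie at 154 RPKM or more, Trf, Hmox1, Tfrc and Slc40a1 between 5 and 20 RPKM, and Mt3 just under 1 RPKM with wide intervals from 2 reads.

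Ftl1 (NM_010240, chromosome 7, 52713314 to 52715256, minus strand), the ferritin light chain, had the highest level of the set. It lay at 873 (uterus 1) and 951 RPKM (uterus 2), on 3245 and 3928 recovered reads, and its mean of 912 ± 55.8 RPKM (SD, n = 2) ranked 52 among all genes and 45 among those with an NM_ identifier. Uterus 2 was higher by a log2 ratio of 0.12 (95% exact interval of the read ratio 0.06 to 0.19). A two-sided exact binomial test on the reads, adjusted by Benjamini-Hochberg over 15133 genes, gave an adjusted p of 0.0092 for Ftl1. That test asks only whether 2 libraries differ beyond counting error, and with deep genes it calls small differences: it called 4.82% of all genes tested and 21.5% of the 1668 genes with at least 1000 reads in sum, but 3.65% of those with 100 reads or more below that. Of the 470 genes at 100 RPKM or more, 43.8% were at least as far apart as Ftl1.

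Fth1 (NM_010239, chromosome 19, 10057136 to 10059601, plus strand), the heavy chain with the ferroxidase activity, was next. It lay at 323 (uterus 1) and 327 RPKM (uterus 2), on 1870 and 2102 reads, a mean of 325 ± 2.88 RPKM (SD, n = 2). The uteri were closest on this gene, with a log2 ratio of 0.02 (interval -0.07 to 0.11) and an adjusted p of 0.953 in the exact test. Of the genes at 100 RPKM or more, 91.9% were at least as far apart.

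The light chain exceeded the heavy chain in both uteri, by 2.70 in uterus 1 and 2.91 in uterus 2 (mean ratio 2.81 ± 0.147, SD, n = 2). The size of that ratio depends on a length. The smallest whole reads that the Fth1 values allow, 935 and 1051, imply a length of 755.5 bases, and 1511 is the smallest multiple that is a whole number of bases. Its GENCODE M1 transcript has 866, and for the other 8 genes the length used lay within 2% of an annotated transcript, which the choice of the multiple fixes in part for Mt1, Mt2, Mt3 and Slc40a1. With the annotated lengths, a choice made after seeing the data, Fth1 came to 567 ± 5.03 RPKM and the ratio of light to heavy chain to 1.61. If the length need not be whole and the smallest reads hold, the same step gives 283 ± 2.51 RPKM and a ratio of 3.22, so the level could move either way while the light chain stayed the higher.

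Both ferritin levels also carry an uncertainty from near-identical copies. Of all stretches of 50 bases in the annotated Ftl1 transcript, 74.9% had an identical copy elsewhere in NCBIM37, spread over 12 other places in the genome. For Fth1 the share was 8.69%, for Trf 5.72%, for Mt2 0.592%, and for Mt1, Mt3, Tfrc, Slc40a1 and Hmox1 it was 0. How the authors counted reads that match several places is not given in the sources used here, so reads of Ftl1 could be lost to its copies or gained from them, and this was not tested. Fth1 and Ftl1 themselves shared no run longer than 13 bases.

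**Figure D2:**
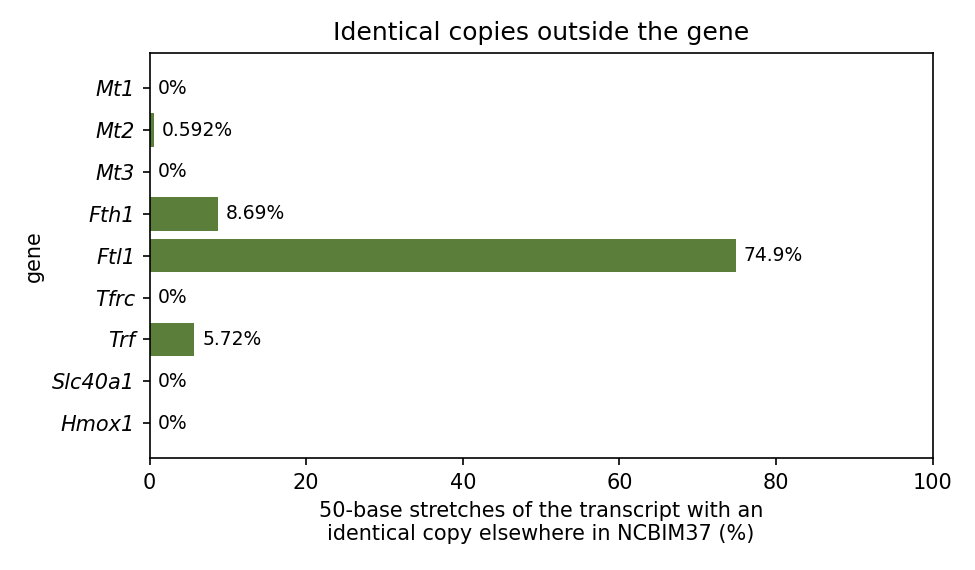
Share of all 50-base stretches of each gene's annotated transcript (percent, bars from 0) that occur identically outside the gene in NCBIM37. Ftl1 stands at 74.9%, Fth1 at 8.69% and Trf at 5.72%, and the other genes lie under 1%.

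Mt1 (NM_013602, chromosome 8, 96702989 to 96704227, plus strand) was the higher metallothionein. It lay at 210 RPKM in uterus 1 (436 reads) and 269 RPKM in uterus 2 (620 reads), a mean of 239 ± 41.7 RPKM (SD, n = 2), rank 172 among all genes. This was the largest difference between the uteri in the set, a log2 ratio of 0.36 toward uterus 2 (interval 0.18 to 0.54), with an adjusted p of 0.0032 in the exact binomial test. Of the 470 genes at 100 RPKM or more, 42 (8.94%) were at least as far apart. The call rests on the recovered reads: with the smallest whole numbers that the ratio of the uteri allows, 109 and 155, the adjusted p was 0.423, although those reads would need a length of 135.5 bases, which is shorter than the 186 bases of the coding sequence.

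Mt2 (NM_008630, chromosome 8, 96696518 to 96697467, plus strand) lay at 154 (uterus 1) and 163 RPKM (uterus 2), on 328 and 386 reads. Its mean was 158 ± 6.55 RPKM (SD, n = 2), rank 259. The log2 ratio was 0.08 (interval -0.13 to 0.30), with an adjusted p of 0.832 in the exact test. Mt1 and Mt2 are neighbours on the same strand, with 5521 bases between the end of Mt2 and the start of Mt1, and their coding sequences share 148 of 186 bases (79.6%). Their transcripts have no identical run longer than 20 bases. Mt1 exceeded Mt2 by 1.36 in uterus 1 and 1.65 in uterus 2 (mean ratio 1.51 ± 0.201, SD, n = 2).

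Mt3 (NM_013603, chromosome 8, 96676507 to 96678048, plus strand), known as the brain metallothionein, was listed at 0.970 (uterus 1) and 0.873 RPKM (uterus 2). Each value stands for 2 reads, under the limit of 3 reads that a count of 0 allows, so no difference was detectable at this depth and the exact test was not run. Mt3 lies 18469 bases before Mt2. The exact 95% Poisson intervals of its level ran from 0.117 to 3.50 RPKM and from 0.106 to 3.16 RPKM, far below the level of Mt2. Mt4, the metallothionein of stratified epithelium, was listed at 0 in both uteri.

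Markers of other cell types lay as follows beside the difference in Mt1. The summed RPKM of the 5 epithelial markers (Krt8, Krt18, Krt19, Epcam, Cdh1) was 244 in uterus 1 and 279 in uterus 2, while their median was 51.1 and 47.9. Of the 5, 3 were higher in uterus 2, with Krt18 passing the exact test, and Krt19 (51.1 and 47.9 RPKM) and Cdh1 (26.4 and 24.9 RPKM) were higher in uterus 1 without passing it. The sum of 6 macrophage markers was 356 and 397. Of the 6, 4 were higher in uterus 2, with C1qa passing the same test, and Emr1 (19.2 and 17.3 RPKM) and Cd68 (15.3 and 14.2 RPKM) were higher in uterus 1 without passing it. The sum of 5 smooth muscle markers was 1808 and 1798, with Myh11 called higher in uterus 2 and Acta2 higher in uterus 1. Of the 5 decidual markers, Prl8a2 and Prl3c1 were listed at 0 in both uteri, and the list's sum was 6.27 and 5.21. The other 3 were detected without being called: Alpl at 2.38 and 2.33 RPKM, Bmp2, over 1.5-fold higher in uterus 1, at 2.39 and 1.03 RPKM, and Wnt4 at 1.501 and 1.84 RPKM. The part of these cell types in the difference was not tested.

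Trf (NM_133977, chromosome 9, 103111206 to 103132616, minus strand), the iron carrier of plasma, was the highest of the low group. It lay at 18.01 (uterus 1) and 19.9 RPKM (uterus 2), on 161 and 198 reads, a mean of 19.0 ± 1.37 RPKM (SD, n = 2). The log2 ratio was 0.15 (interval -0.16 to 0.46; exact test, adjusted p 0.756). Trf is best known as a liver product, and the liver marker Alb was listed at 0 (uterus 1) and 0.115 RPKM (uterus 2). Apoa1, Apoa2, Fgb and Ahsg were listed at 0 in both. Ttr was detected at 4.27 and 5.39 RPKM and Serpina1b at 1.46 and 2.47 RPKM, and Serpina1a lay at 1.75 and 0.606 RPKM. The summed RPKM of the 9 liver markers was 29.9 and 8.58, of which Serpina1e, one of a family of near-identical genes, made up 22.4 in uterus 1 and 0 in uterus 2, and it was the marker called in this list (exact test, adjusted p 1.0e-33). The 111 reads of Serpina1e in uterus 1 rest on a length of 1291.55 bases, which is not whole, and its call depends on them. The part of liver transcripts in the level of Trf was not tested.

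Tfrc (NM_011638, chromosome 16, 32608982 to 32632880, plus strand), the receptor that brings transferrin into the cell, went the other way between the uteri. It lay at 12.3 (uterus 1) and 10.3 RPKM (uterus 2), on 232 and 215 reads, a mean of 11.3 ± 1.44 RPKM (SD, n = 2). The log2 ratio was -0.26 (interval -0.53 to 0.01) with an adjusted p of 0.343 in the exact test, and 20.6% of the 6841 genes between 10 and 100 RPKM were at least as far apart. The ratio of carrier to receptor mRNA was 1.46 in uterus 1 and 1.94 in uterus 2.

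Slc40a1 (NM_016917, chromosome 1, 45964915 to 45982439, minus strand), the only known iron exporter of mammalian cells, was the lowest of the detected genes. It lay at 6.02 (uterus 1) and 5.21 RPKM (uterus 2), on 78 and 75 reads, a mean of 5.62 ± 0.569 RPKM (SD, n = 2), rank 9695. The log2 ratio was -0.20 (interval -0.68 to 0.27; exact test, adjusted p 0.778). Receptor mRNA was higher than exporter mRNA in both uteri, by 2.05 and 1.97, the steadiest of the ratios taken here (mean 2.01 ± 0.0524, SD, n = 2).

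Hmox1 (NM_010442, chromosome 8, 77617517 to 77624492, plus strand), the inducible enzyme that opens the haem ring, lay at 11.7 (uterus 1) and 13.6 RPKM (uterus 2). These values stand for 71 and 91 reads, with a mean of 12.7 ± 1.28 RPKM (SD, n = 2). The log2 ratio was 0.21 (interval -0.26 to 0.68; exact test, adjusted p 0.788). Hmox2, the constitutive form, was higher in both uteri, at 28.1 and 26.3 RPKM. Macrophages, which recycle haem iron and are known to express Hmox1 and Slc40a1, were represented by all 6 of their markers, with a median of 23.0 ± 2.30 RPKM (SD, n = 2), and Cd163, the receptor for haptoglobin-bound haemoglobin, lay at 0.813 and 1.73 RPKM.

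By mean level the order was Ftl1, Fth1, Mt1, Mt2, Trf, Hmox1, Tfrc, Slc40a1 and Mt3. Hmox1 and Tfrc are the neighbours that cannot be ordered, because Tfrc was the higher in uterus 1 and Hmox1 in uterus 2, and their values overlap. For the other neighbours the 2 values of one gene did not overlap those of the next. With 2 libraries this is a description and not a test.

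Between the uteri, 6 of the 8 genes whose mean reached 1 RPKM were higher in uterus 2, against 50.1% of all genes at that level, and the exceptions were Tfrc and Slc40a1. None of the 8 was 1.5-fold apart, as were 8.35% of 13647 genes at that level, 4.1% with uterus 2 the higher. That share comes mostly from low genes. At a mean of 10 RPKM or more, where all of the 8 but Slc40a1 lie, 148 genes were that far apart. That class holds 6841 genes between 10 and 100 RPKM and 470 above, so no unusual stability of the set is read from this. The median log2 ratio of the 8 was 0.10, against 0.00067 over all 13647 genes and 0.04 over the 470 at 100 RPKM or more, of which 60.4% were higher in uterus 2. The exact binomial test called 2 of 8, Mt1 and Ftl1, both higher in uterus 2, where 2.23% of all genes were called in that direction and 2.58% in the other. The 2 called genes have more reads than most, and the share called rises with depth, so nothing particular to the set is read from this count.

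**Figure D3:**
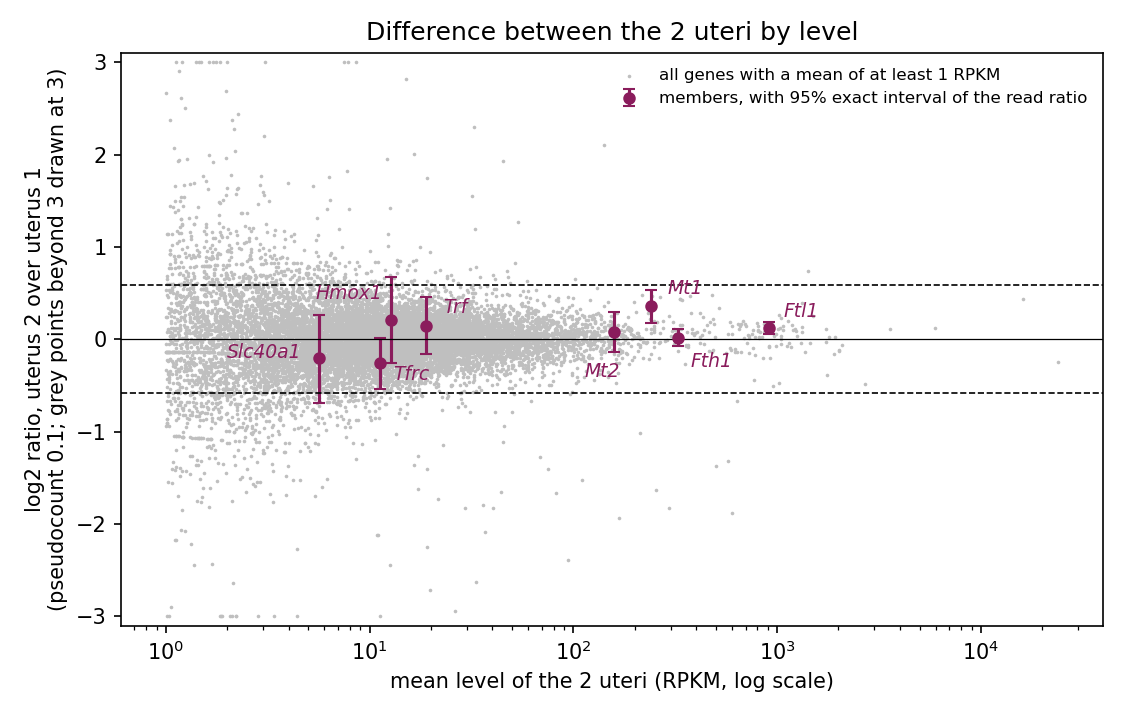
Log2 ratio of uterus 2 over uterus 1 (pseudocount 0.1 RPKM) against mean level (RPKM, log axis) for every gene whose mean reached 1 RPKM in grey and the 8 genes at that level in purple, with 95% exact intervals of the read ratio and dashed lines at 1.5-fold. All 8 lie inside the dashed lines, from -0.26 for Tfrc to 0.36 for Mt1.

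The wider pathway was described with 12 lists of metal, iron and haem genes, of which 93 of 97 symbols were measured. Of these, 75 (80.6%) were detected in both uteri, against 58.4% of all genes, and 8 were listed at 0 in both, and the exact test called 5 of 81 (6.17%, against 4.82% of all genes tested), of which 2 (2.47%, against 2.23%) were higher in uterus 2. Both shares lie near the background. The median of their log2 ratios was 0.04. Ftl2, Flvcr1 and Flvcr2 were not analysed here, and Hjv stands in the table under its older symbol Hfe2.

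Most zinc transporters were detected, and their list medians did not fix an order between import and export. All 14 zinc importers of the Slc39 family were measured and 12 were detected, with a median of 13.2 ± 0.0778 RPKM (SD, n = 2). Slc39a4, the importer best known from the gut, was the highest at 95.3 and 97.8 RPKM, followed by Slc39a1 at 62.8 and 64.1 RPKM and Slc39a7, which releases zinc from the secretory pathway, at 62.8 and 55.2 RPKM. Of the 10 exporters of the Slc30 family 6 were detected, with a median of 8.30 ± 0.647 RPKM (SD, n = 2). Over genes above 0 in both uteri the median was 17.5 RPKM for the exporters and 13.2 RPKM for the importers, so the order turned, and no test compared the lists. Slc30a5 led them at 26.7 and 28.7 RPKM, and Slc30a1, the plasma membrane exporter and a known MTF1 target, lay at 8.73 and 9.30 RPKM. Slc30a8 and Slc30a10 were listed at 0. Mtf1 itself lay at 4.92 and 5.17 RPKM, and Mtf2, a chromatin protein despite its name, at 13.1 and 12.04 RPKM. The other high importers were Slc39a14, at 24.3 and 24.5 RPKM, and Slc39a10, at 20.03 and 19.4 RPKM, and the other high exporters Slc30a4, at 22.9 and 24.6 RPKM, and Slc30a7, at 13.5 and 11.8 RPKM. None of the 14 importers and 6 exporters tested was called by the exact test after adjustment, and Slc30a9, at 20.1 and 25.5 RPKM, had the lowest adjusted p, 0.0614.

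Of 12 iron uptake and reduction genes 10 were detected, and 2 of the 10 tested were called higher in uterus 2. Both called genes have over 1000 reads in sum, the class in which 21.5% of genes were called, so nothing particular to the list is read from them. Ltf, lactotransferrin, an oestrogen-induced secretory product of the mouse uterine epithelium, lay at 48.9 (uterus 1) and 62.9 RPKM (uterus 2), with an adjusted p of 0.00070 in the exact test. Steap4, a metalloreductase, lay at 44.8 and 56.0 RPKM (adjusted p 0.0030, same test). Scara5, a receptor for ferritin, lay at 29.1 and 31.8 RPKM and Steap3, the reductase of the transferrin cycle, at 27.8 and 25.0 RPKM. Slc11a2, which carries iron out of the endosome, was lower at 6.71 and 6.05 RPKM. The second transferrin receptor, Tfr2, was listed at 0 in uterus 1 and 0.0803 RPKM in uterus 2.

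Among genes that sense and regulate iron, 6 of 10 measured were detected. The RNA-binding proteins that recognise the hairpins, Aco1 and Ireb2, lay at 25.2 and 26.5 RPKM and at 24.0 and 19.5 RPKM, and Ireb2 was called higher in uterus 1 with an adjusted p of 0.0278 in the exact test. Fbxl5, which targets Ireb2 for breakdown, lay at 33.7 and 37.1 RPKM and Neo1, a coreceptor in hepcidin signalling, at 32.9 and 33.8 RPKM. The hepcidin genes Hamp and Hamp2 and Hfe2 were listed at 0 in both uteri. Hfe, at 4.70 and 8.73 RPKM on 31 and 64 reads, and Bmp6, at 3.46 and 1.36 RPKM on 32 and 14 reads, were over 1.5-fold apart in opposite directions without passing the exact test (adjusted p 0.0711 and 0.0568).

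Ncoa4, the receptor that delivers ferritin for breakdown, lay at 54.2 and 57.5 RPKM. The iron chaperones Pcbp1 and Pcbp2 lay at 65.6 and 54.1 RPKM and at 36.9 and 27.8 RPKM, and Pcbp2 was called higher in uterus 1 (exact test, adjusted p 0.0056). The mitochondrial ferritin Ftmt was listed at 0. The ferroxidases that work with ferroportin, Cp and Heph, lay at 15.8 and 18.6 RPKM and at 15.4 and 16.99 RPKM, both above Slc40a1 in each uterus, and their relative Hephl1 was listed at 0.

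All 9 genes of haem synthesis were detected, with a median of 16.0 ± 0.611 RPKM (SD, n = 2), and none was called. Alas1, the general first enzyme, lay at 33.3 and 40.1 RPKM. The later enzymes Urod, Fech and Alad lay between 15.6 and 29.6 RPKM. Alas2, the erythroid form, lay at 6.85 and 6.53 RPKM, and its 5′ UTR also held the hairpin pattern. In both uteri the red cell genes Hbb-b1, Hba-a1, Hbb-b2 and Hba-a2 were listed at 0, so these zeros are not read as absence. Of haem breakdown and transport 7 of 9 measured genes were detected. Lrp1, a large endocytic receptor that takes up haemopexin-bound haem among many ligands, lay at 96.2 and 84.5 RPKM and was called higher in uterus 1 on 5492 and 5354 reads, with an adjusted p of 3.2e-09 in the exact test. The biliverdin reductases Blvra and Blvrb lay at 14.5 and 14.9 RPKM and at 27.1 and 27.98 RPKM. Slc48a1, a haem transporter, lay at 14.7 and 16.2 RPKM. Hp, which binds free haemoglobin, was over 1.5-fold apart at 2.91 and 1.40 RPKM on 15 and 8 reads (exact test, adjusted p 0.446), and Cd163 likewise in the other direction (0.188).

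All 6 genes of mitochondrial iron use were detected, and none was called. The iron-sulphur scaffold Iscu led them at 37.9 and 37.6 RPKM, followed by the cysteine desulphurase Nfs1 at 19.4 and 17.97 RPKM. The mitochondrial iron importer Slc25a28 lay at 13.3 and 12.1 RPKM.

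**Figure D4:**
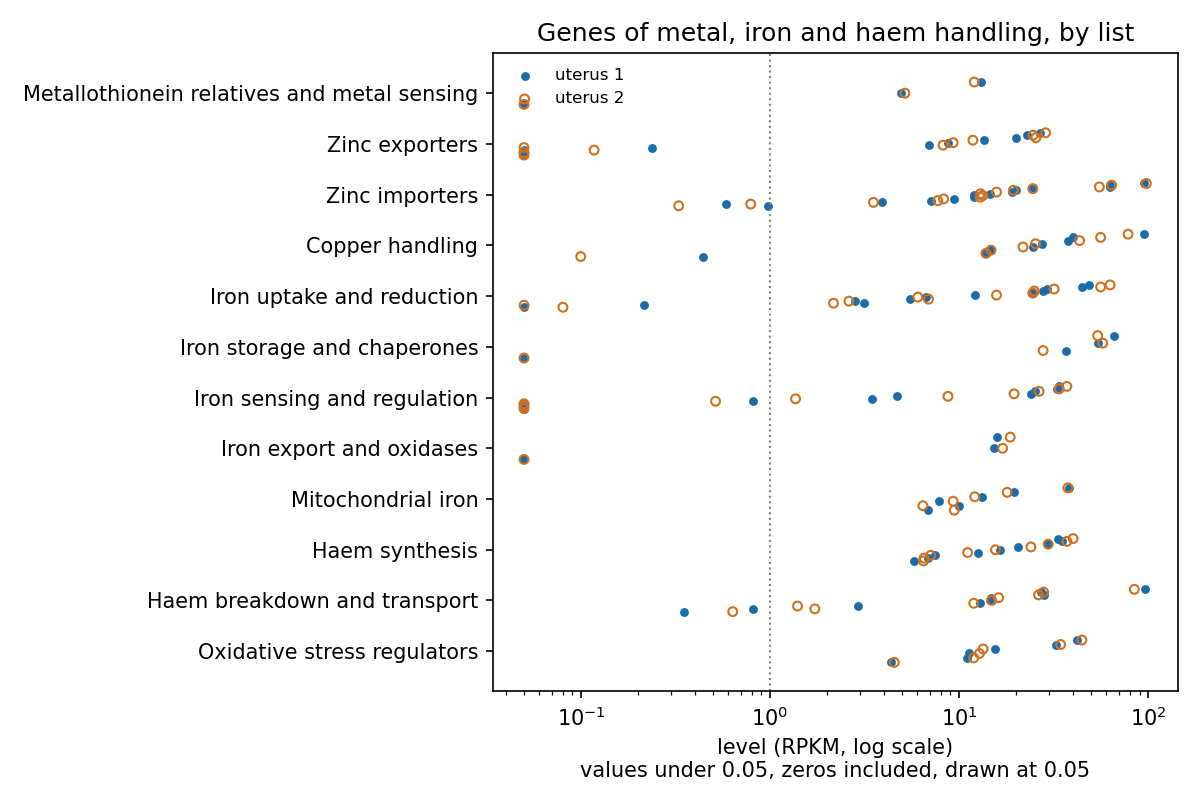
Level of every measured gene (RPKM, log axis) in each of the 12 lists, with filled points for uterus 1, open points for uterus 2 and a dotted line at 1 RPKM; vertical offsets within a list only keep points apart. Zinc importers reach 97.8 RPKM against 28.7 RPKM for zinc exporters.

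The tissue label was checked against 5 uterine genes (Pgr, Esr1, Hoxa10, Hoxa11, Des), all of them detected, with a median of 103 ± 5.46 RPKM (SD, n = 2). Among them Pgr, at 77.5 and 66.4 RPKM, was called higher in uterus 1 by the exact test. The sum of recovered reads was 3795406 (uterus 1) and 4216875 (uterus 2). The libraries were not 1 library deposited again, since the mean chi-square per gene between them was 3.48 over 13410 genes.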

How the data were processed

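The authors' RPKM values, as deposited, were read from the main table of 22740 genes; the annotated table holds the same values for all 22740. Per the labels, expression was normalized to RPKM, and per the submitters' processing notes TopHat, edgeR and build mm9 were used, with no versions. Counting and strand are not given in the sources used here. Each value is a whole number of reads over a length, so reads were recovered: the commonest ratio of the libraries is 1 read against 1, all 16104 genes above 0 in both gave whole-number ratios (relative tolerance 1e-10), and single-exon genes gave scaling totals of 3834174 and 4256101. For genes above 0 in both, the smallest reads were multiplied until the length was a whole number of bases. Among the multiples of that length the one chosen was closest to a GENCODE M1 length (scale 0.05 in the log), with a penalty that grows with the factor, and 1015 genes without such a length kept the first whole length. A gene at 0 in one library gives no ratio, and its length used need not be whole (1291.55 bases for Serpina1e, 1104.33 for Slc30a2). For Fth1 the first whole length was 1511 bases. The procedure was tested on simulated data. The outcome is not reported here, and nothing is read from it for Fth1 or for genes without an annotated length. Log2 ratios use a pseudocount of 0.1 RPKM and understate low genes. The exact binomial test (scipy 1.17.1, at least 6 reads in sum, adjusted p under 0.05) covers counting error only, as do all intervals. With 1 library per animal, neither has a term for variation between animals or preparations. PCR copies are not independent molecules, so even the counting error can be understated. Sequence copies were found with BLAST 2.17.0, joining matches within 10 kb. The labels' protocols give TruSeq libraries from TRIzol RNA. Named list genes are the 5 highest of each list, those listed at 0 in both uteri and those 1.5-fold apart at a mean of 1 RPKM; Slc11a2, Tfr2, Alas2, Atp7a, Atp7b, Nqo1 and single markers were named for their role after their values were seen, and some genes the rule names are not reported here. The members, lists and tests were chosen with earlier results of these data known.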

Additional observations from a re-analysis of the deposited data

How the results depend on the processing

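The log2 ratios of the 9 genes kept their direction and stayed inside their 95% counting interval in all 36 alternatives run (pseudocounts of 0.01 and 1, a TPM scale, centring), and none of the genes was 1.5-fold apart in any of them. These settings shift the ratios little by construction (centring subtracts 0.00067), so no robustness is read from this. The intervals of Mt2, Mt3, Fth1, Tfrc, Trf, Slc40a1 and Hmox1 span both directions. For Mt3, on 2 reads in each uterus, the direction reflects only the library totals. Over all genes the count 1.5-fold apart was 1140, and it became 660 with a pseudocount of 1, 3433 without a filter, 148 at a mean of 10 RPKM and 1825 on the TPM scale, which changes the unit. With the nearest GENCODE length, added after seeing the data, Fth1 moved to 567 RPKM and the ratio of Ftl1 to Fth1 to 1.61; with the smallest reads as well, also added, they moved to 283 RPKM and 3.22. With the smallest whole reads 429 of 14174 genes passed the exact binomial test (729 of 15133 otherwise), and Mt1 was no longer called (adjusted p 0.423), since fewer reads give less power by construction; Ftl1 was still called (0.0126). At 0.5 RPKM all 9 genes were detected. Leaving out either library gives the other library's value, which is under 1 SD from the mean by construction. Depth limits Mt3 most, at 2 reads in each uterus. No paired analysis was possible because both libraries belong to 1 group.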

Other observations

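Copper handling and oxidative stress genes, which share regulators or ligands with the genes above, were described from the same lists. Of 8 copper genes 7 were detected, with a median of 24.8 ± 1.76 RPKM (SD, n = 2), and none was called by the exact test. The copper chaperone Atox1 was highest at 95.3 (uterus 1) and 78.3 RPKM (uterus 2), and Cox17, which serves cytochrome oxidase assembly, lay at 40.1 and 56.0 RPKM on 67 and 104 reads. Commd1, at 37.6 and 43.4 RPKM, Slc31a2, at 27.5 and 25.4 RPKM, and Ccs, at 24.7 and 21.8 RPKM, made up the 5 highest. Atp7b, the copper exporter of liver, lay at 0.443 and 0.0997 RPKM, whereas its relative Atp7a lay at 13.8 and 13.9 RPKM.

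All 6 genes of the oxidative stress list were detected, with a median of 13.2 ± 0.182 RPKM (SD, n = 2), and none was called. Nfe2l2, the factor that activates Hmox1, Fth1 and Ftl1 under oxidative stress, lay at 41.8 and 44.6 RPKM, and its inhibitor Keap1 at 15.4 and 13.4 RPKM. The target genes Txnrd1, Gclm and Srxn1 lay between 10.9 and 34.4 RPKM. Nqo1, a target gene of that factor, was the lowest of the list at 4.37 and 4.54 RPKM.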
